A study of Homo sapiens with 6 samples.

Results

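Control U2932 cells were described from 3 RNA-seq libraries, Scr shRNA replicates 1, 2 and 3, which were chosen by their titles and their genotype label of control and make up 3 of the 6 samples of the series. U2932 is a human cell line established from a diffuse large B-cell lymphoma (DLBCL) of the activated B-cell like (ABC) type. The cells had been infected with lentivirus that carries a scrambled shRNA in a pLKO.1 vector with puromycin resistance and tGFP cassettes, and were grown without stimulation in Iscove's DMEM with 10% FBS and antibiotics. The cells thus carry a viral vector, and no source used here says whether the 3 libraries come from separate infections, cultures or days, so that the spread between them may be technical. The study treated the replicate as a batch, removing its effect from read counts with ComBat before its own test of differential expression, and no such step is stated for the FPKM. The study uses this group as the reference for U2932 cells with a ROCK2 shRNA, and the 3 libraries of those cells enter no value given here. With 1 group there is nothing to test, and every value is a description over n = 3 libraries.

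A mature B-cell senses antigen through a receptor made of immunoglobulin and the CD79A and CD79B chains, and its identity is held by transcription factors such as PAX5, EBF1 and the POU2F2 and POU2AF1 pair. DLBCL is divided by its cell of origin: the germinal center B-cell like (GCB) type keeps genes of the germinal center, where BCL6 is the central repressor, whereas the ABC type has the features of a B-cell leaving it toward the plasma cell, with high IRF4 and chronic NF-κB activity. ROCK1 and ROCK2 are the serine-threonine kinases that act downstream of the small GTPase RhoA.

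The values are FPKM as deposited, a measure in which the fragments of a gene are divided by its length and by the size of the library, and each library lists 20667 gene symbols. A gene was called expressed with an FPKM of at least 1 in all 3 libraries, which held for 9858 genes (47.7%), of which 8818 are annotated as protein coding. A further 1294 genes reached the floor in 1 or 2 libraries, and 9515 stayed under it in all 3, of which 2811 were at 0 throughout. FPKM are per length, so that genes can be set beside each other. Unless another scale is named, 3 values in a row are FPKM as deposited in replicates 1, 2 and 3, in that order, and a rank counts from 1 for the highest FPKM among the 9858 expressed genes of a library. Members of a list are given by mean rank over the 3 libraries, which is not an order that every library shares: of 296 pairs of neighbours over all lists, 98 stood in the same order in all 3 libraries and 213 in replicates 2 and 3.

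The 3 libraries were not alike, and replicate 1 stood apart. Its FPKM summed to 208289, against 438262 and 480612 in replicates 2 and 3, and the median over expressed genes of the fold difference from replicate 1 was 1.81 in replicate 2 and 1.75 in replicate 3. Ranks of the expressed genes correlated with a Spearman's rho of 0.969 between replicates 2 and 3, and of 0.909 and 0.899 between these and replicate 1 (across genes of the same line, which are not independent replicates). The number of reads behind a value is not known from FPKM. The most frequent ratio between the low FPKM of a library and of replicate 3 was used to estimate relative depth. It put replicates 1 and 2 at 73.5% and 92.7% of the depth of replicate 3, from 859 and 1133 genes. The estimate assumes that such values mostly rest on the same number of fragments in both libraries. To compare libraries, each library was therefore divided by a factor from the trimmed mean of its log ratios to the geometric mean of the libraries, and spread is the standard deviation (SD) over the 3 libraries of log2(scaled FPKM + 1), a scale that understates the differences of low genes. On it the median spread of an expressed gene was 0.27, and 0.110 between replicates 2 and 3 alone. The highest scaled FPKM was at least 2-fold the lowest for 2242 genes (22.7%). Values are given per library, so that they can be read without replicate 1.

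The cells carried the B-cell markers their label calls for and next to none of other lineages. Of 59 markers of T cells, NK cells, myeloid cells, erythroid cells and platelets, epithelium, and stroma or endothelium, only CD68, a macrophage marker (1.95, 1.21 and 1.02), and EPCAM (3.66, 2.59 and 4.47), which encodes an epithelial adhesion protein, were expressed, 22 were at 0 in all 3 libraries, and the FPKM of all 59 summed to 12.6, 13.5 and 13.6. In RNA of whole cultures, few cells with a transcript and little of it in every cell cannot be told apart. The defining T-cell genes CD3G, CD2 and CD5, the myeloid genes MPO, S100A8 and S100A9 and the endothelial genes VWF and CDH5 were at 0 in all 3 libraries. The highest T-cell marker was CD247, the zeta chain of the T-cell receptor complex, at 0.721, 5.85 and 5.01. CD33, a myeloid receptor, reached 1.01, 0.183 and 0, and ACTA2, a smooth muscle actin, 0.724, 1.05 and 0.612, and no other marker reached an FPKM of 1 in any library. With scaled FPKM, CD247 was over the floor in all 3 libraries (1.06, 4.71 and 4.22) and CD68 was not (2.88, 0.976 and 0.859), so that these calls rest on the scaling.

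The expressed genes spanned a wide range of levels. The median over expressed genes of the mean FPKM was 10.6, 5128 genes had a mean of at least 10, 577 of at least 100 and 57 of at least 1000. The 100 highest genes held 33.8%, 31.0% and 36.6% of the summed FPKM, and the genes of ribosomal proteins 24.4%, 20.8% and 26.0%. Among the 20 genes with the lowest mean rank, 15 encode ribosomal proteins, among them RPS25 (1465, 2605 and 3382), RPS6 (1106, 3351 and 3048), RPL35A (1142, 2760.3 and 2783) and RPL37A (917, 2876 and 3190.4). RPLP0, RPLP1, RPL11, RPL19, RPS16, RPL35 and RPL36 were also among these 15, with mean ranks from 14.7 to 25. Many of these genes have processed copies in the genome with which they can share reads. RPLP1 was at 1411, 1412 and 3969 and so differed between libraries by more than the others of this group, with a spread of 0.78 against 0.24 for RPS25. The remaining 5 genes were FTL, the light chain of the iron store ferritin (2302, 2802 and 2879.7), the elongation factor EEF1A1 (1492, 2514 and 3407), GAPDH (950.2, 2969 and 4276), beta-actin ACTB (625, 2676 and 2752) and SEC11C.

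SEC11C, a catalytic subunit of the signal peptidase that trims secreted proteins in the endoplasmic reticulum, was measured at 1256, 2944 and 2957, a mean of 2386 ± 978 (SD, n = 3), and held ranks 11, 5 and 11. Its spread of 0.23 was under the median of 0.27 for all expressed genes.

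Of 19 B-cell surface genes 16 were expressed, and 6 of these had a mean rank in the highest 10%, which 9.38% of all expressed genes reached. The 3 highest were CD79A (160.4, 405 and 405) and CD79B (57, 538 and 308), the signalling chains of the B-cell receptor, and MS4A1, which encodes CD20 (73.6, 426 and 443). FCRLA, an intracellular Fc receptor-like protein, was at 43.9, 142 and 124, TNFRSF17, the BCMA receptor of late B-cells and plasma cells, at 22.1, 205 and 171, and the tetraspanin CD53 at 22.8, 111 and 105. CD79A was the steadiest of these, with ranks 156, 149 and 164, whereas those of TNFRSF17 were 1573, 300 and 403. CR2 (0.263, 1.28 and 0.665), FCER2 (0, 0.04 and 0.111) and CD24 (0.0539, 0.128 and 0.119) did not reach the floor in all 3 libraries. CD79A, MS4A1 and CD79B stood in a different order in each library, and 4 of the 15 pairs of neighbours in the list kept their order in all 3.

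The transcription factors of B-cell identity were expressed for 18 of 19 genes of the list. MEF2B, a MADS-box factor of germinal center B-cells, had the highest mean rank, at 39.1, 209 and 192, above the others in replicates 2 and 3 and below TCF4 in replicate 1. Next by mean rank were the octamer coactivator POU2AF1 (30.3, 164 and 158), the E proteins TCF4 (39.7, 123 and 115) and TCF3 (30.5, 69.7 and 87.4), and the ETS factors ETS1 (19.1, 81.4 and 68) and SPIB (10.7, 74.4 and 77.6). PAX5, the factor that commits cells to the B lineage, was at 10.8, 41 and 38.7 and EBF1 at 1.64, 6.34 and 5.85, so that PAX5 lay above EBF1 in every library. POU2F1 missed the floor through replicate 1 alone, at 0.974, 4.54 and 4.61, though not with scaled FPKM (1.43 in replicate 1), while its relative POU2F2 was at 8.11, 75 and 56.9.

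The octamer is the motif that POU2F1 and POU2F2 bind, with POU2AF1 as coactivator, and its letters were looked for in the promoters of the listed genes. The motif searched was ATGCAAAT or its reverse complement ATTTGCAT, the only motif searched, on both strands of RefSeq promoters of 300 bases, 250 before and 50 after a gene's start, on GRCh38.p14. Of 309 genes of the lists other than the markers of other cells, 251 matched a promoter by symbol and 11 of these (4.38%) held the octamer. It was found in 1.77% of all 35116 promoters and in 1.72% of those of 7538 expressed genes that matched. The 11 genes were CD53, IL4R, MEF2B, MEF2C, P2RY8, PIM2, POU2F1, PRKCB, SERPINA9, TLR9 and VPREB3. A match describes the letters only, and the occupancy of these promoters was not measured.

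The promoters of 5 of these genes are shown as examples from the B-cell surface, transcription factor and cell-of-origin lists, with coordinates on GRCh38.p14, with the octamer in capitals and each read 5′ to 3′ on the strand of its gene. PIM2 (chrX:48918975-48919274, minus strand) holds the octamer 160 and 123 bases before its start, in opposite orientations, and SERPINA9 (chr14:94476148-94476447, minus strand) holds its reverse complement 133 and 96 bases before its start, each time within the same surrounding letters. CD53 (chr1:110870960-110871259, plus strand) and VPREB3 (chr22:23754376-23754675, minus strand) hold it 46 and 47 bases before the start, and MEF2B (chr19:19170214-19170513, minus strand) 82 bases before.
PIM2: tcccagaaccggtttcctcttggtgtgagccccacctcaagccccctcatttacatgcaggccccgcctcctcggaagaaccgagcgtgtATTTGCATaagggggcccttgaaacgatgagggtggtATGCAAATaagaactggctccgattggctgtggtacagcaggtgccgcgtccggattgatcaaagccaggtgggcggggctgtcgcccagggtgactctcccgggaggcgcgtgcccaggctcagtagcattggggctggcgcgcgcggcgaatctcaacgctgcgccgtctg
SERPINA9: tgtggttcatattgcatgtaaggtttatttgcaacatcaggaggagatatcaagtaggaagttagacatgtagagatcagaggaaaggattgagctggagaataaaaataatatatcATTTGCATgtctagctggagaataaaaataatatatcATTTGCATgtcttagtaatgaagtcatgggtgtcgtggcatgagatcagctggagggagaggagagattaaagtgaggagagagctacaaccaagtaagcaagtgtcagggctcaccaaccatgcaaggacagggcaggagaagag
CD53: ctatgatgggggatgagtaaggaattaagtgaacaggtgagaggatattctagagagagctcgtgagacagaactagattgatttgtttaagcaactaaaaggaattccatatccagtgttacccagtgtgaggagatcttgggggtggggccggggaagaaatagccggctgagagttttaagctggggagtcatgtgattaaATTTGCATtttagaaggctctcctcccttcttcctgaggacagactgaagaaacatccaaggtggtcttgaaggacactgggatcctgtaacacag
VPREB3: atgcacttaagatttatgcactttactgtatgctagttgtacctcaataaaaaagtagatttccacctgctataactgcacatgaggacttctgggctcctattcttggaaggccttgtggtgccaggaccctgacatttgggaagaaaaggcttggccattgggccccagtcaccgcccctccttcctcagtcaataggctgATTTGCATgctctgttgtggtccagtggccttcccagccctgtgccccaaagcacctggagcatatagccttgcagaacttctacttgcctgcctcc
MEF2B: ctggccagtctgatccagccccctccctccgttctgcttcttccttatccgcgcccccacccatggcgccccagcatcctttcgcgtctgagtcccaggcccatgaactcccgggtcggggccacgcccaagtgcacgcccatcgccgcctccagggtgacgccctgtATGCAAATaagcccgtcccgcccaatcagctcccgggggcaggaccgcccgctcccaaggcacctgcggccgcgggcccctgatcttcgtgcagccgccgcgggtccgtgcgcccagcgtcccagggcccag
These 5 genes were not alike in level or in steadiness. PIM2 had a mean FPKM of 76.8 ± 35.8, CD53 of 79.6 ± 49.2, MEF2B of 147 ± 93.5, VPREB3 of 39.2 ± 27.3 and SERPINA9 of 33 ± 35.7 (SD, n = 3 each), and their spreads on the log2 scale were 0.36, 0.80, 0.87, 0.74 and 1.59.

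The cell of origin was described with the genes of the Lymph2Cx assay, which counts transcripts of ABC genes, GCB genes and reference genes to assign a DLBCL. Neither its probes nor its coefficients were used here, so the values below are levels and no class is assigned. All 8 ABC genes were expressed, while 5 of 7 GCB genes were. PIM2, a serine-threonine kinase of cell survival, was the highest ABC gene at 35.4, 96.9 and 98. IRF4, the factor that drives B-cells toward the plasma cell, was at 20, 94.3 and 95.2, and below PIM2 in every library. TNFRSF13B, the TACI receptor, was at 9.13, 47.7 and 55.1, CYB5R2 at 6.24, 26.6 and 24.8, CCDC50 at 9.85, 19.2 and 19.2, CREB3L2 at 8.13, 17.5 and 18.2, RAB29 at 8.4, 18.8 and 13.3 and LIMD1 at 2.6, 3.86 and 3.15. Of these, PIM2, IRF4 and TNFRSF13B stood in the same order in all 3 libraries and LIMD1 was below the rest in all 3, whereas the order of CYB5R2, CREB3L2 and RAB29 changed.

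By their median the GCB genes were lower in each library and the expressed ones less steady, with a median spread of 0.55 against 0.28 for the ABC genes. Single genes of the lists overlapped in level. SERPINA9, a serpin of germinal center B-cells, was at 3.82, 72.8 and 22.3 and had the highest spread of the 3 Lymph2Cx lists, 1.59. ASB13 was at 6.35, 24 and 20.5, ITPKB, a kinase of inositol phosphates, at 5.22, 19.5 and 19, S1PR2, the receptor that confines cells to the germinal center, at 4.38, 19.8 and 15.8, and the MYB relative MYBL1 at 1.76, 7.39 and 5.81. MME, which encodes the germinal center marker CD10, was under the floor in replicate 1 only, at 0.423, 4.54 and 1.56, and MAML3 was at 0, 0.00375 and 0. The 5 reference genes had spreads between 0.15 and 0.35: UBXN4 was at 13.8, 17.7 and 14.7, ISY1 at 9.41, 13.9 and 12, R3HDM1 at 5.71, 12.5 and 12.3, WDR55 at 5.13, 13.2 and 11.7 and TRIM56 at 3.74, 5.48 and 6.41.

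**Figure D1:**
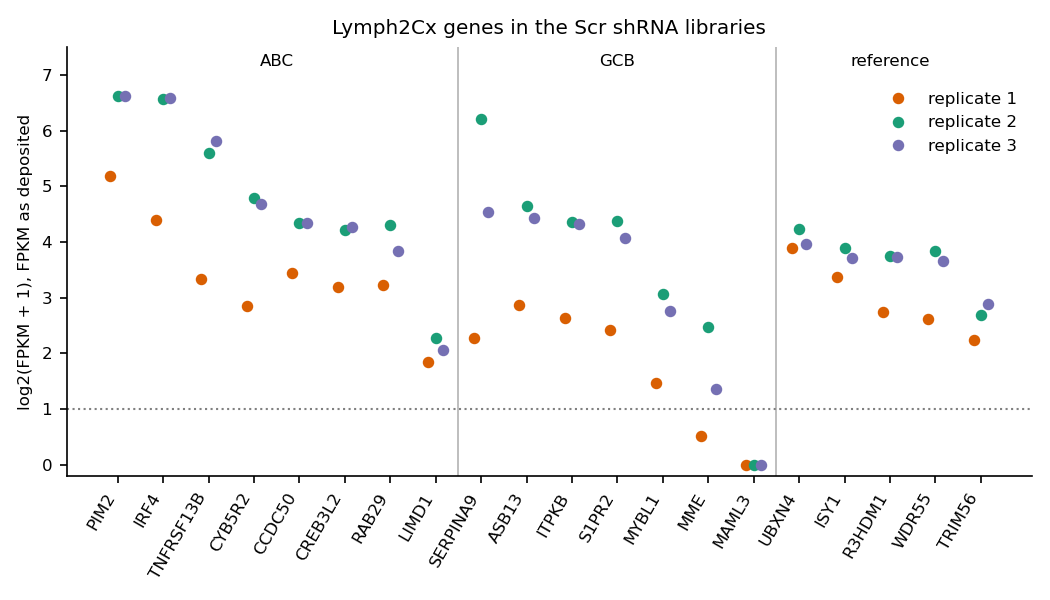
Level of each Lymph2Cx gene in the 3 Scr shRNA libraries, as log2(FPKM + 1) of the deposited FPKM on the vertical axis, with 1 point per library and the genes in order of mean FPKM within the ABC, GCB and reference lists. The dotted line marks an FPKM of 1. All 8 ABC genes lie above it in all 3 libraries, MME crosses it, MAML3 lies at the bottom, and the point of replicate 1 is the lowest for every gene but MAML3, which is at or near 0.

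Within each library the median ABC gene lay above the median GCB gene, by 1.07, 0.20 and 0.44 on the log2(scaled FPKM + 1) scale, a mean of 0.57 ± 0.45 (SD, n = 3). The direction was shared by the 3 libraries, but the distance ranged widely and was largest in replicate 1. The medians in FPKM were 8.77, 22.9 and 22.0 for the ABC genes and 3.82, 19.5 and 15.8 for the GCB genes. Pair by pair, the ABC gene was the higher one in 51, 36 and 42 of the 56 pairs of an ABC with a GCB gene, in all 3 libraries for 35 pairs, and the GCB gene was higher in all 3 for 4. In replicates 2 and 3 alone these counts were 36 and 14. IRF4 and PIM2 were above every GCB gene in all 3 libraries.

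Other genes tied to either type were present side by side. Among 16 genes known from ABC-DLBCL, 14 were expressed, and the highest by mean rank were the survival gene BCL2A1 (12.4, 81.3 and 84.2), SPIB (10.7, 74.4 and 77.6), PIM1 (13.7, 48 and 50.5), the AP-1 factor BATF (10.8, 41.1 and 52.7), the phosphatase PTPN1 (15, 35.6 and 33) and the proapoptotic BMF (20.2, 32.8 and 22.1). ENTPD1 was under the floor in replicate 1, at 0.762, 1.67 and 1.29, though not with scaled FPKM (1.12 there), and cyclin D2, CCND2, in all 3, at 0.0985, 0.00408 and 0. Among 15 genes known from the germinal center or GCB-DLBCL, 13 were expressed, and LRMP (22.2, 158 and 144), ELL3 (19.9, 154 and 94), the histone methyltransferase EZH2 (48.1, 57.4 and 45.6), RGS13 (13.3, 130.4 and 165) and BCL6 (21.3, 66.2 and 58.8) followed MEF2B in mean rank, although EZH2 was the highest of the list in replicate 1. The median of the mean ranks was 2725 for the 14 ABC-associated genes and 2304 for the 13 GCB-associated genes, so that by rank the GCB-associated list lay above, the opposite of the Lymph2Cx lists, whose medians were 3653 and 4369.7. S1PR1 (0.252, 2.31 and 2.69) was under the floor in replicate 1 only.

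BCL6 keeps B-cells in the germinal center program and IRF4 leads them out of it, and both transcripts were found here in the same range. BCL6 was at 21.3, 66.2 and 58.8 and IRF4 at 20, 94.3 and 95.2, so that BCL6 was the higher one in replicate 1 and IRF4 in replicates 2 and 3. PRDM1, the repressor that completes the plasma cell program, was far below both at 0.995, 6.25 and 4.77.

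Genes of the plasma cell were expressed for 11 of 13, and 6 of the 11 had a mean rank in the highest 10%. By mean rank SEC11C was followed by IGJ, the joining chain of secreted immunoglobulin (97.8, 404 and 365), the endoplasmic reticulum chaperone HSP90B1 (97.8, 279 and 252), XBP1, the transcription factor of the secretory apparatus (64.2, 147 and 141), MZB1 (33.1, 125 and 115) and TNFRSF17. XBP1 had the smallest spread of these 6 on the log2 scale, 0.19, against 0.23 for SEC11C and 1.28 for TNFRSF17. SDC1, the CD138 marker of mature plasma cells, was at 1.25, 0.678 and 0.654, and ELL2, an elongation factor of secretory immunoglobulin, at 2.98, 9.05 and 12.1. Of the immunoglobulin genes, IGLL5 was at 86.6, 245 and 313 and IGLL1 at 0.0538, 0.0582 and 0, and the constant regions were not analysed here.

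**Figure D2:**
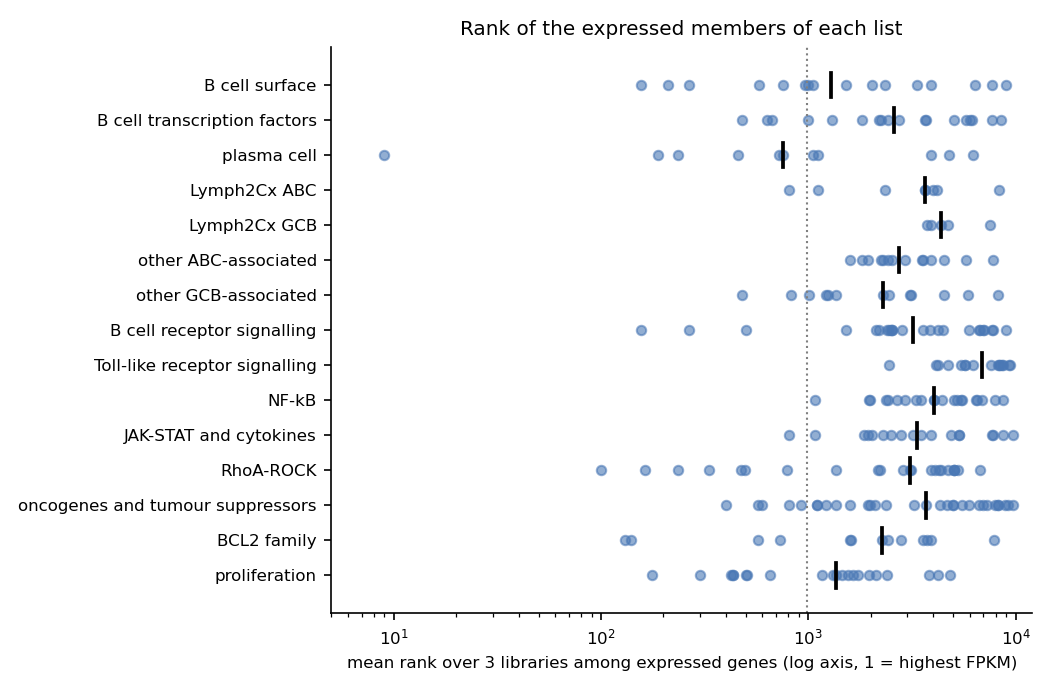
Mean rank over the 3 libraries of each expressed member of 15 gene lists, on a log axis where 1 is the highest FPKM. Each point is a gene, the black bar is the list's median, and the dotted line is rank 986, the limit of the highest 10%. SEC11C stands alone at the left, at rank 9, and the medians run from 759 for the plasma cell genes to 6915 for the Toll-like receptor genes.

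All 24 genes of B-cell receptor signalling were expressed. By mean rank the 2 CD79 chains were followed by the adaptor GRB2 (51, 149.6 and 139), the inhibitory receptor CD22 (12.9, 89.4 and 85.5) and the kinases BTK (11.7, 55.9 and 41.8) and SYK (11, 54.3 and 42.1). The adaptor BLNK was at 7.63, 53.7 and 50.3, the Src family kinases LYN and BLK at 10.4, 36.5 and 40.8 and at 11, 42.1 and 39.3, and PLCG2, which links the receptor to calcium, at 10.3, 42 and 39.6. MALT1 (14.4, 29.8 and 29.8) and BCL10 (4.27, 5.28 and 5.76), which carry the signal to NF-κB, were at unequal levels, with MALT1 above BCL10 in every library and spreads of 0.12 and 0.24.

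Toll-like receptor signalling was the lowest of the signalling lists by its median level, with 16 of 23 genes expressed and none in the highest 10%. The kinase IRAK1 (13.5, 34.1 and 32.1) was the highest in every library, and below it the adaptor MYD88 (7.23, 18.1 and 17.8), TAB1 (6.78, 18.4 and 16.8), MAP3K7 (7.92, 12.6 and 12.3), TLR9 (2.06, 17.9 and 18.6) and TLR10 (3.02, 13.4 and 13.7) had no order common to the 3 libraries. TLR9, which senses DNA, was the receptor that differed the most between libraries, with a spread of 1.15, and 7 genes of the list were under the floor in at least 1 library.

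All 21 genes of the NF-κB list were expressed, none in the highest 10%. TNIP1, which restrains the pathway, was the highest in every library, at 29.2, 75.8 and 67.6, and next by mean rank were the subunit RELA (24.5, 33.6 and 34.5), the adaptor TRAF2 (16.9, 38.4 and 43), the ubiquitin ligase BIRC3 (10.6, 49 and 37.4), the inhibitor NFKBIB (20.1, 22.6 and 32.1) and the subunit NFKB1 (11.2, 31.8 and 31). The best known inhibitor, NFKBIA, was at 10.4, 14 and 16.4. Among the subunits RELA was the highest in every library, while RELB was at 7.33, 23.5 and 27.2, NFKB2 at 9.05, 16.8 and 15.7 and REL at 4.15, 11.6 and 13.2. NFKB2 had one of the smallest spreads of any list member, 0.013.

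Of 23 genes of JAK-STAT signalling and its cytokines 18 were expressed. By mean rank PIM2 was followed by STAT6 (33.2, 72.2 and 61), the receptor chain IL4R (13.1, 64.8 and 48.7), PIM1, the receptor chain IL10RA (13.5, 55.6 and 38.8) and PTPN1. STAT3 was at 9.73, 19.2 and 14.9, below STAT6 in every library. The cytokine IL10 was under the floor in replicates 1 and 3, at 0.0678, 1.28 and 0.731, and IL6 (0.423, 0.0521 and 0.12), its receptor IL6R (0.481, 0.0597 and 0.271), STAT5A (0.508, 0.353 and 0.513) and SOCS3 (0.141, 0.426 and 0.16) were under it in all 3.

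The RhoA and ROCK pathway was present from the GTPase to the cytoskeleton, with 23 of 25 genes expressed and 7 in the highest 10%. The highest were the actin-severing protein CFL1 (220.0, 829 and 835), the GDP-dissociation inhibitor ARHGDIB (99.9, 538 and 506), RHOA itself (98.5, 256 and 276), the myosin light chains MYL12B (83.8, 194 and 174) and MYL12A (54.2, 165 and 141) and the membrane linker EZR (45.6, 155 and 168). RHOA had nearly the same rank in every library, 234, 234 and 235. RHOB (0.27, 0.214 and 0.209) and MYL9 (0.0382, 0.0307 and 0.0562) did not reach the floor. The kinases themselves were modest in level: ROCK1 was at 8.64, 15.3 and 14.8, a mean of 12.9 ± 3.72 (SD, n = 3), and ROCK2 at 4.32, 7.21 and 5.78, a mean of 5.77 ± 1.44 (SD, n = 3). ROCK1 was above ROCK2 in all 3 libraries, with mean ranks of 4254 and 6715. On the scaled log2 scale ROCK1 varied little, with a spread of 0.02, as did the RhoA exchange factor ARHGEF1 (18.1, 32.3 and 32) with 0.025, while ROCK2 had 0.17.

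Of 19 genes taken from the text of the study, which names them for U2932 or for other cells and reagents, 15 were expressed. In order of mean rank they were RHOA, XBP1, IRF4, IRF8 (26.6, 62 and 75.9), the mitotic kinase PLK1 (16.8, 103 and 115), BCL6, RELA, ARHGEF1, MYBBP1A (9.85, 38.6 and 42.1), STAT3, ROCK1, ELL2, ROCK2, BHLHE40 (7.1, 3.05 and 5.97) and ZEB2 (1.19, 2.25 and 1.85). Their median mean rank was 2229, the rank of ARHGEF1. The 4 genes under the floor were MYC (0.735, 4.72 and 6.4), PRDM1 (0.995, 6.25 and 4.77), CIITA, the coactivator of MHC class II (0.884, 5.02 and 4.1), and IL10. The first 3 of these missed it in replicate 1 only, and IL10 in replicates 1 and 3. With scaled FPKM the first 3 were over the floor in all 3 libraries, MYC at 1.08, PRDM1 at 1.47 and CIITA at 1.30 in replicate 1, and 18 of the 19 were expressed. In replicates 2 and 3 together 18 of the 19 reached the floor, against 49.3% of all 20667 genes.

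Of 9 IRF family genes 8 were expressed. IRF3 (48.3, 65.2 and 68.8), IRF4 and IRF8 were the highest, without a common order in the 3 libraries, and next by mean rank were IRF2 (8.4, 24.7 and 20.1), IRF9 (15.6, 7.46 and 5.94) and IRF1 (4.54, 9.23 and 6.34), of which IRF9 was above IRF2 in replicate 1. IRF8 was above IRF2 in every library.

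Oncogenes and tumour suppressors were expressed for 31 of 38 genes. TCL1A, a coactivator of AKT that marks B-cells before the memory stage, had the highest mean rank, at 42.7, 254 and 234, and was below BCL2, CDK4 and EZH2 in replicate 1. High in mean rank as well were the survival gene BCL2 (46.3, 113 and 154), the cell cycle kinase CDK4 (45.8, 130.4 and 119), PIM2 and the kinase inhibitor CDKN2C (30.4, 69.7 and 65.4). MYC, a driver of growth in many lymphomas, was among the 7 genes under the floor in at least 1 library, at 0.735, 4.72 and 6.4. Among the D cyclins CCND3 was at 19.1, 35.3 and 33.2, with the smallest spread of all 273 expressed list members, 0.011, whereas CCND1 was at 2.15, 0.114 and 0.141.

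The BCL2 family was high, with 13 of 15 genes expressed and 4 in the highest 10%. MCL1, the short-lived survival protein, was at 171, 560.1 and 573, PMAIP1, which encodes its antagonist NOXA, at 502, 300.0 and 428, BCL2 at 46.3, 113 and 154, the effector BAX at 53.6, 95.8 and 84, BCL2A1 at 12.4, 81.3 and 84.2 and BIK at 12.2, 70.2 and 107. PMAIP1 was higher than MCL1 in replicate 1 and lower in replicates 2 and 3. HRK (1.86, 0.198 and 0.146) was under the floor in replicates 2 and 3 and BCL2L2 (0.696, 0.338 and 0.114) in all 3.

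All 21 proliferation genes were expressed, 8 in the highest 10%, and the highest by mean rank were the replication clamp PCNA (144, 377 and 329), the helicase subunits MCM7 (101, 195 and 188), MCM2 (63.4, 156 and 153) and MCM3 (81, 164 and 122), the thymidylate synthase TYMS (59, 173 and 158) and MCM4 (48.9, 166 and 136). MKI67, the proliferation marker Ki-67, was at 5.9, 23.6 and 15.6. Housekeeping genes were expressed for all 12 of the list and were not equally steady. B2M was at 485, 906 and 939, LDHA at 218, 455 and 649 and PPIA at 187, 387 and 688, and the spreads were 0.078 for B2M, 0.74 for ACTB, 0.68 for GAPDH and 1.53 for TUBB.

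The spread was not shared evenly among the gene groups, and most of it came from replicate 1. In that library 579 expressed genes (5.87%) were at least 1 log2 below the mean of the other libraries and 519 (5.26%) at least 1 log2 above it, and 42.6% of expressed genes had their lowest and 43.5% their highest scaled FPKM there. Among the 16 expressed B-cell surface genes 9 were at least 1 log2 lower in replicate 1, none higher, and 15 had their lowest scaled FPKM there. The same counts were 9, 0 and 18 of 18 for the B-cell transcription factors, 13, 0 and 18 of 24 for B-cell receptor signalling, and 10, 0 and 20 of 21 for proliferation. Their median differences from the other libraries were -1.12, -1.05, -1.003 and -0.99 on the log2 scale. RGS13, an inhibitor of G protein signalling, lay furthest below in replicate 1 of all list genes, at 13.3, 130.4 and 165, with a difference of -2.56. The NF-κB list, with 1 gene lower and 0 higher and a median of -0.29, and the Lymph2Cx reference genes, with 0 and 0 and a median of 0.14, moved less.

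The genes that were higher in replicate 1 included those of the integrated stress response, in which the factors ATF4 and DDIT3 (CHOP) act on amino acid and redox genes. A list of this response was drawn up after the values were seen and so describes them only. Of its 15 expressed genes 13 were at least 1 log2 higher in replicate 1, and all 15 were highest there, with a median difference of 1.94. ATF3 was at 31, 1.12 and 2.28, with a spread of 2.51, DDIT3 at 80.4, 18.4 and 18.9, TRIB3 at 81.1, 13 and 20.7, CHAC1 at 25.8, 3.19 and 6.88 and PPP1R15A at 73.8, 21.6 and 18. ASNS (49.8, 52.3 and 58.6) and PHGDH (68, 108 and 97.9), which serve amino acid synthesis, differed less, by 0.67 and 0.24. Of 12 expressed genes of a hypoxia list drawn up in the same way 4 were at least 1 log2 higher in replicate 1, among them VEGFA (25.6, 2.99 and 5.59) and BNIP3 (59.6, 17.3 and 25.5), and of 6 expressed interferon-stimulated genes 4 were, among them IRF9 and ISG15 (11.2, 4.96 and 7.4). Replicate 1 was also the library of the lowest depth, and the Spearman correlation across genes of its deviations was -0.0081 with transcript GC content and 0.094 with transcript length. The part of depth, culture or handling in these differences was not tested. Besides ATF3, the 10 genes with the largest spread included C6orf48 (390.3, 187 and 28.2), GNRHR2 (38.3, 3.96 and 3.01) and SYTL1 (17.9, 1.97 and 2.95), all highest in replicate 1. C6orf48 differed more in replicate 3, by -3.58 from the other libraries against 3.23 in replicate 1. Its log2 difference between replicate 3 and replicate 2 was -2.61, and its symbol matched no coordinates.

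**Figure D3:**
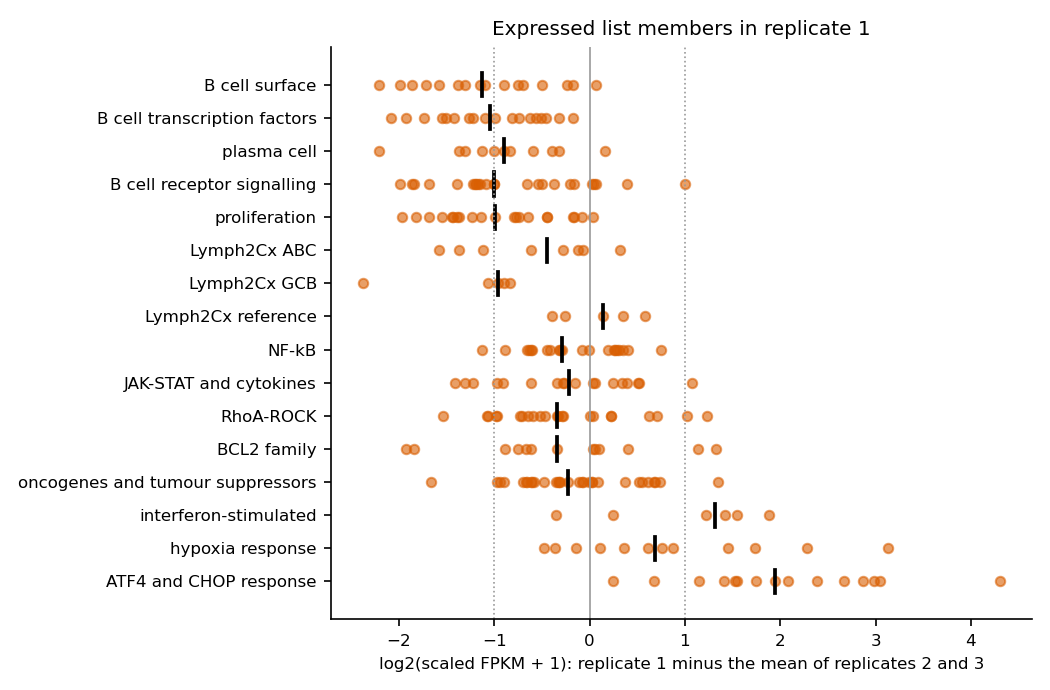
Difference of replicate 1 from the mean of replicates 2 and 3, on the log2(scaled FPKM + 1) scale, for the expressed members of 16 gene lists. Each point is a gene, the black bar is the list's median, and dotted lines mark 1 log2 in either direction. The medians of the B-cell surface, transcription factor, receptor signalling and proliferation lists lie near -1, and that of the ATF4 and CHOP list, drawn up after the values were seen, near 2.

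Replicate 3 differed in the major histocompatibility complex (MHC). Of all expressed genes 209 (2.12%) were at least 1 log2 below the mean of the other libraries in replicate 3 and 119 (1.21%) above it, and 160 (1.62%) were at least 1 log2 below replicate 2. HLA-DRA, the alpha chain of HLA-DR, was at 33.9, 248 and 25.8, and HLA-B, a class I chain, at 117, 220.4 and 51.3. After scaling HLA-DRA was lower in replicate 1 than in replicate 2 as well, by a log2 difference of -1.98, while that of HLA-B was -0.038. Of the 18 expressed genes of the class I and class II lists on chromosome 6, 16 were at least 1 log2 lower in replicate 3 than in replicate 2. The genes of these lists on other chromosomes were not: the invariant chain CD74 was at 121, 836 and 663, B2M at 485, 906 and 939, RFX5 at 13.1, 45.9 and 34.6, RFXANK at 23.2, 60.4 and 48.9 and NLRC5 at 1.13, 2.51 and 1.84. TUBB, a tubulin gene that lies in the same region (chr6:30685212-30693315 of GRCh37), was at 221, 893 and 104, so that a gene outside antigen presentation was lower in replicate 3 as well.

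The genes concerned were neighbours. In a stretch of the MHC whose limits were set after the values were seen and whose last gene is ZBTB9 (chr6:33421747-33425321 of GRCh37), 72 of 76 expressed coding genes were at least 1 log2 lower in replicate 3 than in replicate 2, with a median of -2.41, or 5.30-fold. Within 3 Mb before the limits of this stretch 1 of 13 genes was, TRIM27 (11.8, 22.7 and 3.27), and within 3 Mb after them 0 of 23. Among the 8742 expressed coding genes elsewhere 44 were. The 4 genes of the region that were not were HLA-DRB5 (6.71, 31.6 and 25.6), HLA-DQA1 (6.89, 24.5 and 18.9), PHF1 (5.94, 3 and 1.03) and ZBTB9 (3.99, 4.96 and 2.51). In replicate 1 the median difference of the 76 genes from replicate 2 was -0.107. At least 1 log2 lower there were 8 of them, among them HLA-DRA, HLA-DRB1, HLA-DRB5 and TUBB, and 495 of the 8742 genes elsewhere. HLA genes have near-identical copies and many alleles, between which 50-base reads can be split, so that the separate values of HLA-DRB1 (24.5, 126 and 22.3) and HLA-DRB5 are uncertain. Of the 10 members with the largest spread, counted over the lists other than the stress, hypoxia and interferon lists, 8 lay in this region, among them HLA-DMA (1.70), HLA-E (1.69), HLA-DPA1 (1.63), HLA-DRA (1.59), TUBB (1.53), HLA-DMB (1.46) and TAP1 (1.45), the others being SERPINA9 (1.59) and RGS13 (1.49).

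**Figure D4:**
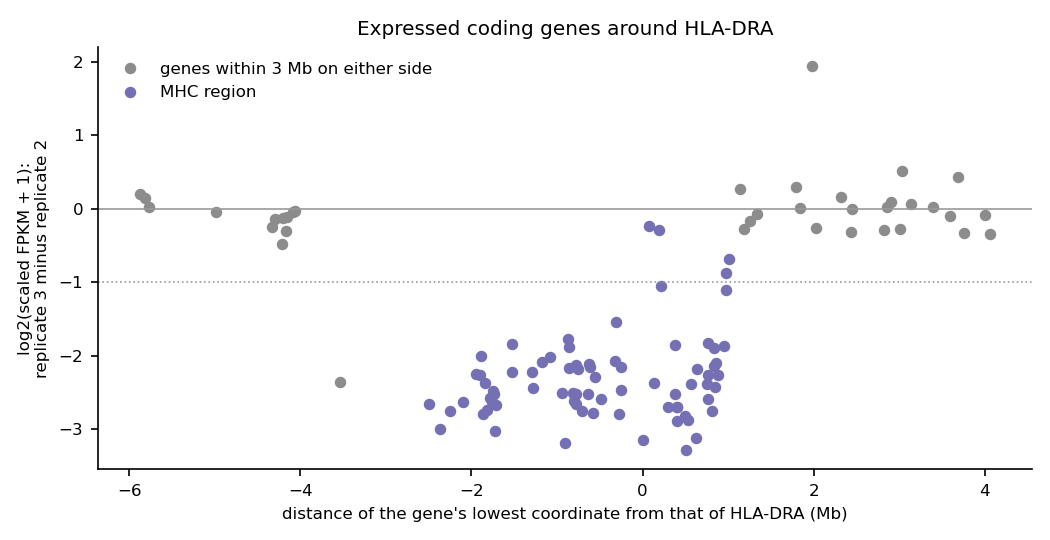
Difference between replicate 3 and replicate 2 on the log2(scaled FPKM + 1) scale for expressed coding genes of the MHC region and of 3 Mb on either side, by the distance of each gene's lowest coordinate from that of HLA-DRA in Mb. The genes of the region lie around -2.41, most of those outside lie near 0, with TRIM27 low to the left, and the points of HLA-DRB5 and HLA-DQA1 stand above the rest close to 0 Mb.

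Replicate 2 was the least displaced library, with 154 expressed genes (1.56%) at least 1 log2 above the mean of the others and 95 (0.964%) at least 1 log2 below it. Among its higher genes were processed pseudogenes, copies of messenger RNA in the genome that share reads with their parent genes, so that their values are uncertain. RPS18P9 (1.15, 85.9 and 1.04), RPL23P8 (1.17, 137 and 4.81), UBE2MP1 (1.09, 41.1 and 2.08) and RPL13AP20 (13.6, 304 and 30.6) were among the 10 genes with the largest spread, all highest in replicate 2. The last of these 10 were RPPH1, the RNA of ribonuclease P (13.9, 1.37 and 28.1), and the ribosomal protein gene RPL36A (153, 36.7 and 399), both lowest in replicate 2.

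A last feature of all 3 libraries was a stretch of highly expressed genes on chromosome 18, which was noticed in the ranks and so is described without support. Between TXNL1 and VPS4B (chr18:54264440-61089716 of GRCh37, 6.83 Mb) 16 of 28 coding genes were expressed, with a median of the mean FPKM of 53.8, against 13.8 for the 106 expressed coding genes of the rest of the chromosome and 11.2 for all 8818. In the highest 10% of mean ranks were 7 of the 16 (43.75%), against 9.64% of all expressed coding genes. The stretch holds SEC11C, the thioredoxin-like TXNL1 (371, 822 and 846), LMAN1, a cargo receptor of the endoplasmic reticulum (614, 812 and 1058), PMAIP1, VPS4B (104, 102 and 124), BCL2 and PIGN (47.4, 90.4 and 81.1), which make up the 7, as well as MALT1 (14.4, 29.8 and 29.8). TNFRSF11A (3.49, 1.35 and 1.46) was the lowest of the 16. The number of gene copies was not measured.

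**Figure D5:**
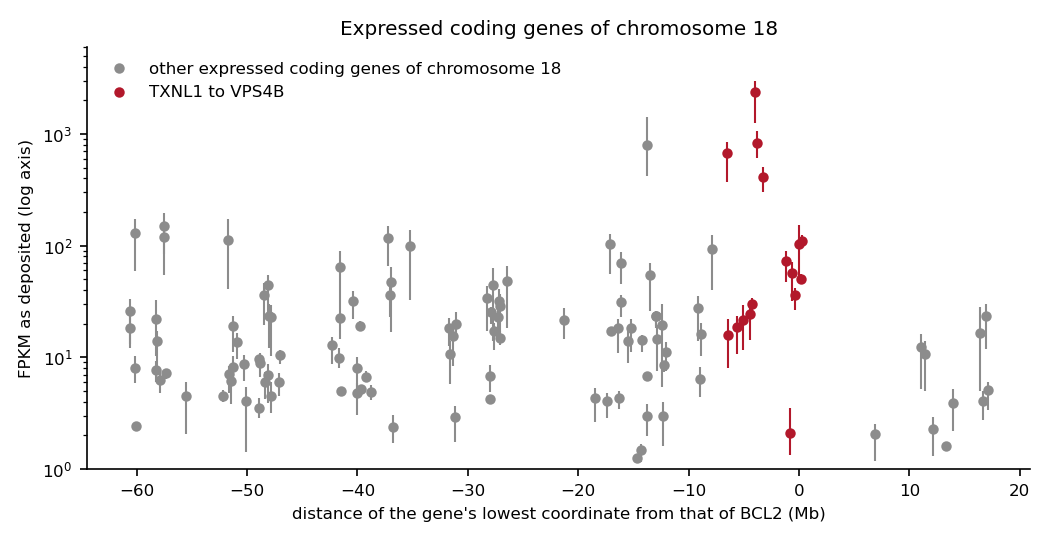
FPKM as deposited, on a log axis, of the expressed coding genes of chromosome 18 by the distance of each gene's lowest coordinate from that of BCL2 in Mb. Points are means over the 3 libraries and lines run from the lowest to the highest library. The 16 genes from TXNL1 to VPS4B have a median of 53.8 and include SEC11C at the top.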

How the data were processed

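Total RNA of U2932 cells was made into Nextera libraries and sequenced as paired reads of 50 bases. The authors aligned reads to hg19 with STAR 2.4.2 and computed FPKM with Cufflinks 2.2.1, and the deposited FPKM are per gene symbol. The gene annotation is not given in the sources used here. FPKM hold no read counts, so that no counting interval was given, and the 3 files of knockdown libraries were not used.

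Genes that reached an FPKM of 1 in all 3 libraries were ranked in each. Libraries were scaled over these genes by the trimmed mean of log ratios (trim 0.3 of ratios and 0.05 of levels), and log2 was taken with a pseudocount of 1. List members were sorted by mean rank, and neighbours whose order was the same in all 3 libraries were counted. The scripts (Python 3.11.15, pandas 2.3.3, numpy 2.4.6, matplotlib 3.10.9) were tested on simulated data. Coordinates came from GENCODE 44 on GRCh37, matched by symbol for 92.4% of expressed genes, and promoters from RefSeq on GRCh38.p14. Near-identical copies and overlapping genes may share reads.

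Members and lists were chosen with earlier results of these data known. Named are the 20 genes and 5 short RNAs of lowest mean rank, all Lymph2Cx genes and all genes of a list taken from the study's text, up to 6 highest members of each other list with those under the floor where these were 6 or fewer, and the 10 genes and 10 list members of largest spread, lists drawn up later left out. EBF1, PAX5, POU2F2, VPREB3, BLK, BLNK, BCL10, LYN, MALT1, PLCG2, CCND1, CCND3, MKI67, NFKB2, NFKBIA, REL, RELB, CD33, CD247, ACTA2, NLRC5, HLA-DQA1, HLA-DRB5, and the genes named for a position or from the stress, hypoxia and interferon lists were chosen after their values were seen. Alternatives changed the floor, scaling, pseudocount and rows used, and left out each replicate. Some genes are not reported here.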

Additional observations from a re-analysis of the deposited data

How the results depend on the processing

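The number of expressed genes was 5895 with a floor of 5 and 3521 with a floor of 10. Left as deposited, without scaling, the FPKM gave a median spread of 0.46 and 4898 genes with a ratio of at least 2, and with a floor of 10 there were 506 such genes. Leaving out 1 library at a time gave a median spread between 0.114 and 0.29 and between 359 and 1818 genes with a ratio of at least 2, the lowest of both without replicate 1. Without the MHC region and the processed pseudogenes, an alternative added after seeing the data, they were 0.27 and 2143. Under these alternatives 41 values of the summaries moved by less than the spread between libraries or, for counts, by less than 1.5 times. For the median spread the limit was instead the SD of its values with each library left out. Of the counts per list and ranks of single genes 214 stayed within these limits and 14 moved, mostly with a floor of 5. With that floor 2 GCB genes of Lymph2Cx, 14 genes of B-cell receptor signalling and 6 of Toll-like receptor signalling were left. A mean over 3 libraries can hardly move by their SD when 1 is left out, so that for means and ranks those settings decide little. No paired analysis was possible because the 3 libraries form 1 group and nothing is compared between groups. Depth is estimated only in relation between the libraries. POU2F1, MME, S1PR1, ENTPD1, MYC, PRDM1 and CIITA were under the floor in replicate 1 alone. That library had the lowest estimated depth but the fewest genes at 0, 3913 against 4675 and 4476 in replicates 2 and 3. It had 10510 genes with an FPKM of at least 1, against 10573 and 10349. The part of depth in these misses was not tested. With scaled FPKM POU2F1, ENTPD1, MYC, PRDM1, CIITA and CD247 were over the floor in all 3 libraries, and CD68, ATF3, LY96 and NOTCH2 were not.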

Other observations

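Rows of short RNAs were expressed in 13 of 117 cases and the 5 highest of them took a different order in each library. RMRP, the RNA of ribonuclease MRP, was at 34.4, 7.52 and 72.7 FPKM in replicates 1, 2 and 3, SNORD17 at 7.71, 37.8 and 32.1, SNORA70 at 13.5, 13.4 and 38.0, RNU6ATAC of the minor spliceosome at 13.4, 29.2 and 13.1, and SNORA63 at 27.1, 26.7 and 6.33. FPKM of RNAs shorter than a fragment are hard to compare with those of messenger RNA.

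Of 76 processed pseudogenes that reached an FPKM of 1 in any library, 56 were highest in replicate 2 after scaling and 37 were at least 1 log2 above the other libraries there, against 3 in replicate 1 and 4 in replicate 3. Over all 11152 genes that did so the count for replicate 2 was 245. The part of reads shared with parent genes was not tested.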
